A study of Mus musculus with 40 samples.

Results

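Genes for the protein components of the cytosolic ribosome were followed in hippocampus and frontal cortex of mice carrying a human gut microbiota. The members were chosen by name alone: protein-coding genes called Rpsa, Rplp0, Rplp1 or Rplp2, or Rpl or Rps followed by a digit, with kinases of the Rps6k family, symbols marked as pseudogenes and 1 further gene left out. The rule took 85 of the 47643 genes in the count tables, 51 with large subunit names and 34 with small subunit names. They lie on 19 chromosomes, and 4 (Rpl10, Rpl36a, Rpl39 and Rps4x) are X-linked. The recipients were germ-free, wild-type Swiss Webster mice, described in the study's methods as females of 6 to 8 weeks from Taconic on the control diet. Each cohort received by oral gavage the stool of 1 of 10 children with epilepsy, collected before (pre-KD) or after (post-KD) a clinical ketogenic diet (KD). Brain regions were taken on the fourth day after colonization, and RNA was sequenced in 40 libraries, 10 for each region and condition, each pooled from 6 mice. The 2 regions came from the same 20 cohorts, so a hippocampal and a frontal cortical library share mice, whereas pre-KD and post-KD libraries share only the donor. No mouse without a human microbiota, and none fed the KD itself, was part of these libraries, and a library of pooled mice holds no spread between animals.

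The ribosome is the particle that translates mRNA, with a small subunit that reads the message and a large subunit that joins amino acids. Each carries 1 copy of most of its proteins, and in neurons ribosomes also work in dendrites and axons, where local translation contributes to synaptic plasticity. Ribosomal protein mRNAs are known for a run of pyrimidines (C and T) at the start of the transcript, the terminal oligopyrimidine tract, through which their translation responds to the nutrient-sensing kinase complex mTORC1. RNA-seq measures the amount of the mRNA, and a change in the translation of an unchanged amount would not be seen in it.

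The annotated starts of members were searched for this feature, which the name rule did not use. RefSeq start windows (GRCm38.p6, the assembly also called mm10) were at hand for 65 of the 85 members, with 77 annotated starts. A tract opening at the annotated first base, a C followed by 4 bases that are each C or T on the transcribed strand, stood at 14 of the 77 starts (18.18%) and at 823 of all 32851 starts in the table (2.505%). When the tract could open up to 5 bases to either side, the shares were 41.56% and 18.35%. A match is a description of letters and no proof of where transcription began. The windows of 30 bases below hold 15 bases on each side of the start, and the capitals mark the longest run of pyrimidines led by a C that opens within 10 bases of it. They are shown for 3 members named in the frontal cortical comparison (Rpl38, Rpl28 and Rps27), for Rps6, the small subunit protein that S6 kinases phosphorylate, and for Rps4x and Rps19bp1, in which no run of 5 was present.
Rpl38, chr11:114668565-114668594, plus strand: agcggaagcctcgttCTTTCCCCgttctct
Rpl28, chr7:4792950-4792979, plus strand: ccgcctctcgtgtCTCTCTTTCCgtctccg
Rps27, chr3:90213634-90213663, minus strand: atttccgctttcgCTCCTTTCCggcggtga
Rps6, chr4:86857353-86857382, minus strand: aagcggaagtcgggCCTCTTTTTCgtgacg
Rps4x, chrX:102189377-102189406, minus strand: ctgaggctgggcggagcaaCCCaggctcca
Rps19bp1, chr15:80264292-80264321, minus strand: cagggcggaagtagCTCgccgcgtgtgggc

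Libraries held 1140756 to 1947416 counts on genes in hippocampus and 1188447 to 2095352 in frontal cortex. Members took 1.403 to 1.87% of the counts in hippocampus and 1.33 to 1.81% in frontal cortex. The share was low where the RNA Gm42418, a gene that overlaps ribosomal RNA sequence, was high: it took 13.9 to 17.96% of counts in the 5 hippocampal libraries with the lowest member share and 8.63 to 12.1% in the 5 with the highest. In frontal cortex those ranges were 13.4 to 18.02% and 9.85 to 11.9%, and the part of Gm42418 in the differences below was not tested except as a covariate. Gm42418 is itself part of the counts from which the share is taken. The number of genes with a count also separated these libraries. It was 13993 to 15750 against 10528 to 13025 in hippocampus, and 14189 to 15140 against 11362 to 14116 in frontal cortex. Total counts did so in hippocampus only, at 1576569 to 1947416 against 1165037 to 1474736. All 8 libraries of donors 9 and 10 held counts of Y-linked genes (139 to 276 over 4 genes) with Xist at 42 counts or fewer, which goes against the sex given in the methods. In the other 32 libraries Y-linked genes had 27 counts or fewer and Xist at least 487. Counts of members that passed a threshold are therefore also given without those 2 donors.

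**Figure D1:**
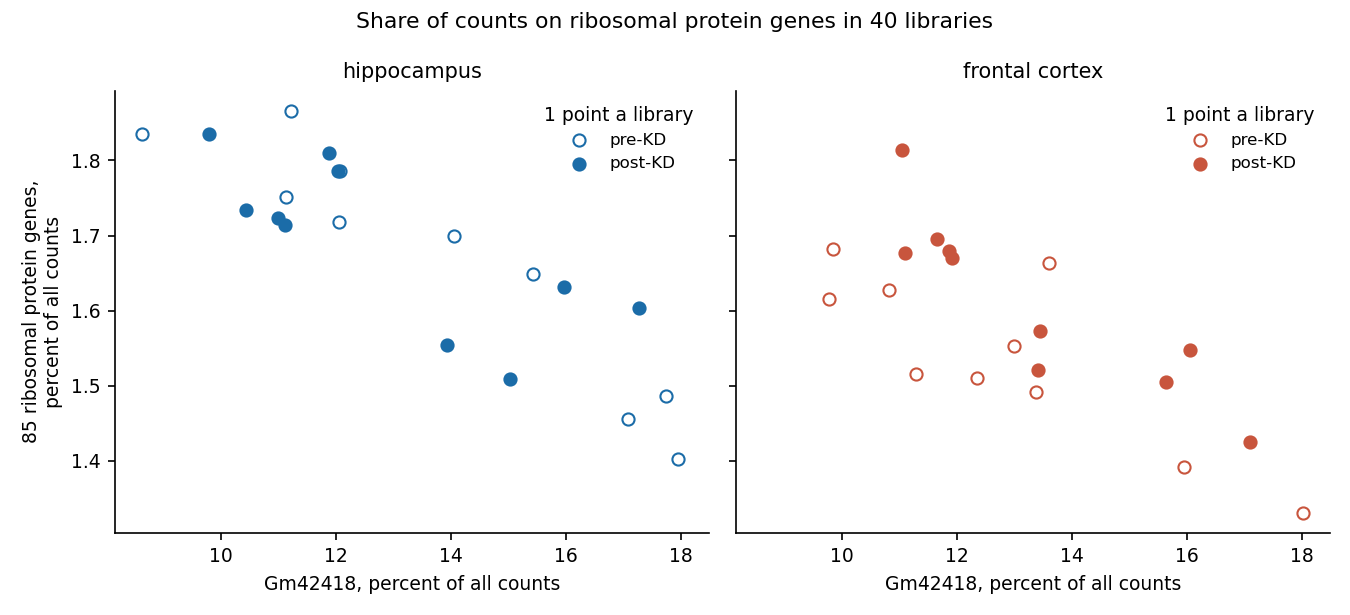
Share of all counts on the 85 ribosomal protein genes (y axis, percent) against the share on Gm42418 (x axis, percent), 1 point for each of 40 libraries, open for pre-KD and filled for post-KD. The share of members runs from 1.33 to 1.87%, and libraries with more Gm42418 lie lower.

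As a share of all counts, members took 1.66% ± 0.163 (SD, n = 10) in pre-KD and 1.69% ± 0.111 in post-KD hippocampus, and 1.54% ± 0.115 and 1.61% ± 0.115 in frontal cortex. With Gm42418 and mitochondrial genes set aside, the shares were 2.27% ± 0.142 and 2.29% ± 0.103 in hippocampus and 2.08% ± 0.101 and 2.20% ± 0.110 in frontal cortex. The pre-KD and post-KD ranges overlapped in both regions. Large subunit names took 1.05 to 1.33 times the counts of small subunit names in the 40 libraries.

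Levels of single members, as CPM (counts scaled to library size) per kilobase of transcript, spread over a range of 227-fold in the large and 220-fold in the small subunit among those tested. Division by length holds for reads spread along the whole transcript, as from the TruSeq kit that the labels name, and not for a kit that reads transcript ends, such as the QuantSeq FWD kit in the study's resource list. Which kit was used was not settled here, and the order of levels and the ratios of paralogues below depend on it. The most abundant large subunit mRNA was Rplp1, a protein of the stalk that brings elongation factors to the ribosome, at 2264 CPM per kilobase over the 40 libraries. Next were Rpl23a, at the mouth of the tunnel through which the new chain leaves, at 889, and Rpl37 at 863. The small subunit was led by Rps29 at 2049, Rps21 at 1695 and Rps14 at 1095. At the other end, Rpl29, Rpl7l1 and Rpl10a had 9.99, 13.9 and 18.3 CPM per kilobase, and Rps6, Rps27l and Rps2 had 9.33, 26.7 and 30.6. The stalk itself was unequal, with Rplp2 at 810.5 and Rplp0, the scaffold on which the stalk proteins sit, at 46.4 CPM per kilobase.

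**Figure D2:**
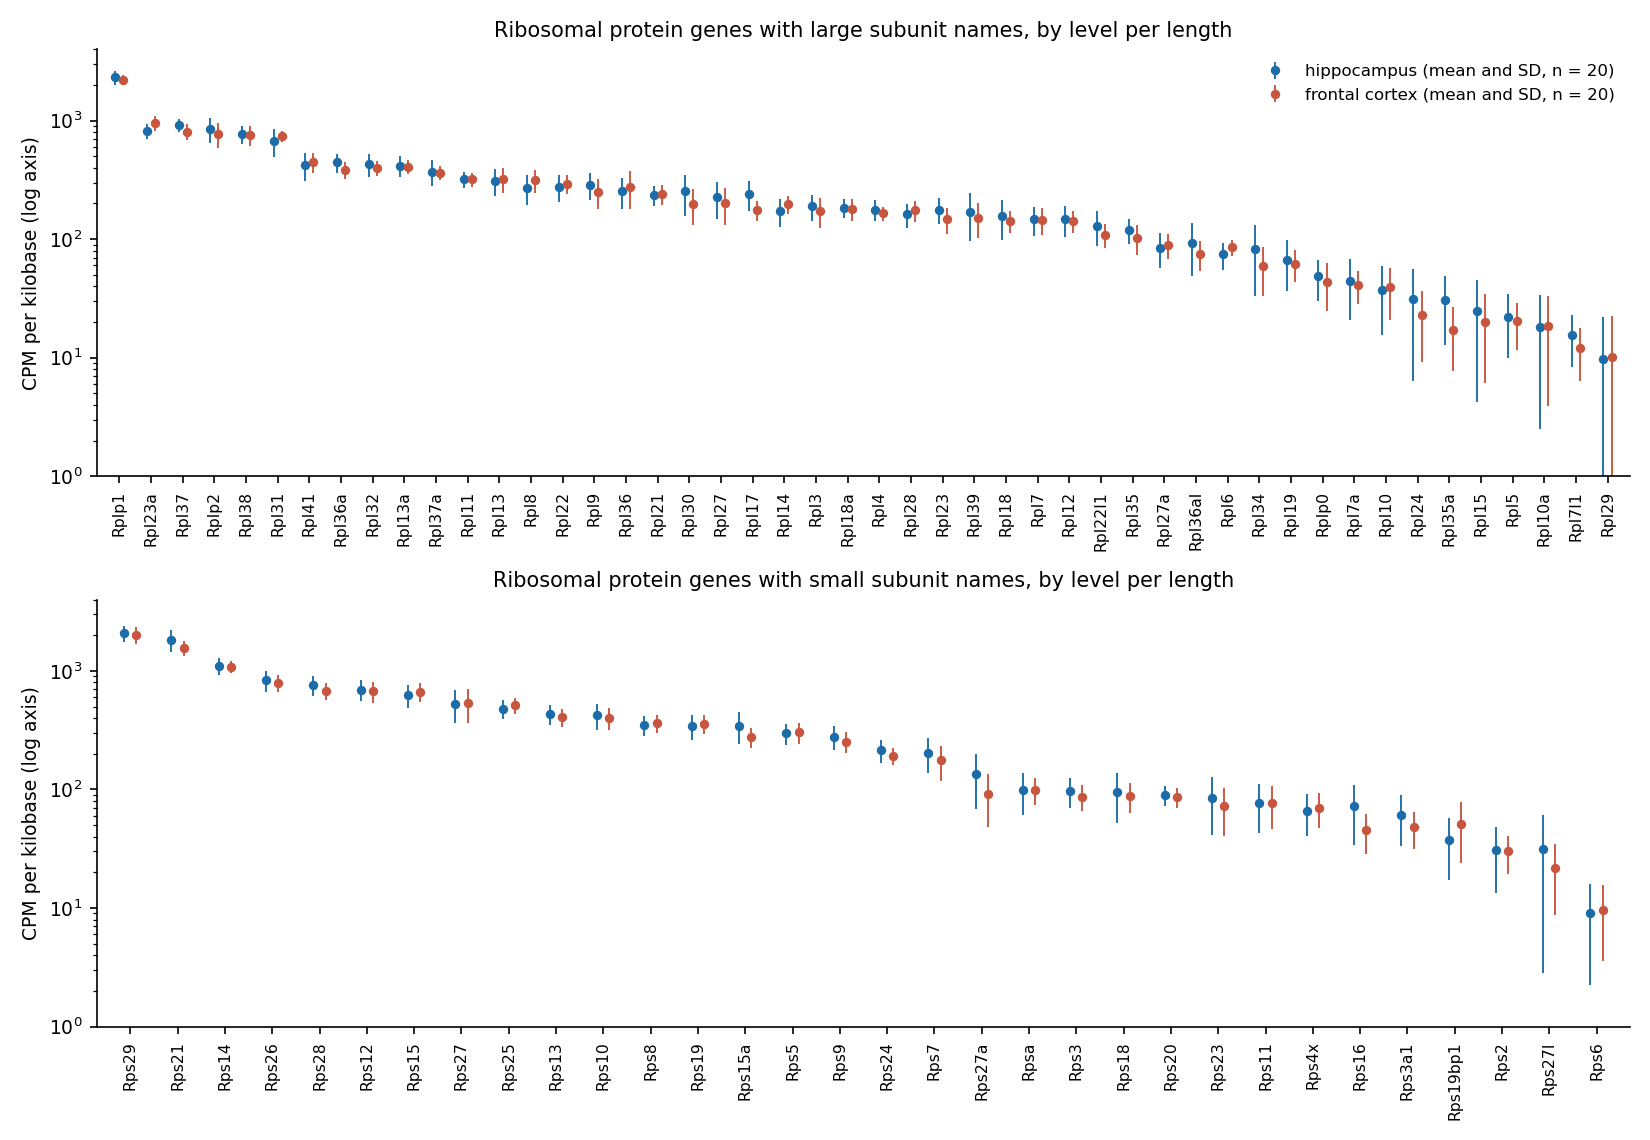
Mean level of tested members (CPM per kilobase, log axis) in hippocampus and frontal cortex, with bars for the SD over 20 libraries, large subunit above and small subunit below. Rplp1 and Rps29 head the 2 panels, and the regions lie close together for most genes. A bar longer than its mean runs to the foot of the axis.

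The order of levels was nearly the same in both regions, with a rank correlation of 0.994 across 81 members. These are genes measured in the same cohorts, not independent replicates. Neighbours in the order lay closer than the larger of their SDs in 45 of 47 large and 28 of 32 small subunit pairs in hippocampus, and in 43 of 47 and 26 of 32 in frontal cortex. In hippocampus, for example, Rpl23a had 819 ± 118 CPM per kilobase and Rpl37 921 ± 120 (SD, n = 20), and in frontal cortex the pair stood the other way round, at 958 ± 144 and 804 ± 124.

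Ribosomal protein genes have many processed copies in the genome, and the rule by which reads matching several copies were counted is not given in the sources used here. In 46 of 85 members more than 50% of the 69-base windows of the transcript, the length of a read, also occurred in annotated transcripts of other genes. The median was 52.4% over the 81 members with enough counts. These other genes can include ones that overlap the member at its own place in the genome. Rps6 shared 84.2% of its windows with others, 13 pseudogenes among them. Of the other low members named above, Rpl10a shared 87.7%, Rps2 72.6% and Rpl29 71.3%, while Rps27l shared 14.6% and Rpl7l1 5.15%. How far this bears on the low levels of these members was not tested. Rows with ribosomal protein names that are not members (259 pseudogene rows and 6 protein-coding rows marked as pseudogenes) together held few counts. These were equal to 0.773% of those on members in each region. Across members the level did not follow the shared part: the rank correlation was -0.071. The 19 members with over 75% shared had a median of 210 CPM per kilobase (9.33 to 889) and the 15 with under 25% a median of 172 (13.9 to 1695). 

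Some members overlap another gene. Rps10, whose protein lies on the head of the small subunit, shared 91.6% of its exons with a readthrough gene on the same strand, RPS10-NUDT3, Rpl24 shared 71.5% with Gm28037, Rpl36al 63.1% with Gm49383 and Rpl13a 59.3% with Gm45713. Counts of these 4 could be lost to or split with the partner. Genes on the opposite strand overlapped 68.3% of Rpl35, 55.4% of Rpl23a, 46.6% of Rpl5, 34.7% of Rpl30 and 28.8% of Rpl22l1, and without the strand setting their reads cannot be told apart. Rps19bp1 carries the name but encodes a partner of Rps19 and regulator of the deacetylase Sirt1, no structural part of the ribosome. It had 37.5 ± 20.4 CPM per kilobase in hippocampus and 51.4 ± 27.2 in frontal cortex (SD, n = 20).

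Members known from other tissues were at or near 0. Rpl10l, the testis copy of X-linked Rpl10, and Rpl39l, the testis copy of Rpl39, had no count in either region. A total of 0 allows up to 0.0979 CPM in hippocampus and 0.0888 in frontal cortex, and these limits cover counting error only. Rpl3l, which replaces Rpl3 in striated muscle, had 5 counts in hippocampus and 0 in frontal cortex. Rps27rt, a retrotransposed copy of Rps27 with 90.5% of its windows shared, had 29 and 26 counts. Together with Rpl29 (172 and 206 counts) these were the 5 members too low to test for post-KD against pre-KD, and 80 were tested.

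In 4 families with more than 1 expressed copy the paralogue was the smaller source of mRNA per length. Rpl22, an RNA-binding large subunit protein, had 277 ± 72.6 CPM per kilobase in hippocampus and its paralogue Rpl22l1 130.2 ± 42.9. Rpl7 had 147 ± 40.9 and Rpl7l1 15.6 ± 7.22. Rpl36a and Rpl36al, the latter with the overlap given above, had 445 ± 82.8 and 93.55 ± 44.6, and Rps27 and Rps27l, which bind zinc, had 531 ± 165 and 31.7 ± 28.9 (each SD, n = 20). The order within each of these 4 pairs was the same in frontal cortex, at 292 and 109 for Rpl22, 146 and 12.2 for Rpl7, 385 and 75.6 for Rpl36a, and 536 and 21.7 for Rps27, each with its paralogue second. The shared part of the windows was unlike within pairs. In that order it was 11.1% and 60.3%, 44.1% and 5.15%, 84.8% and 61.8%, and 98.6% and 14.6%. How far this bears on the ratios was not tested.

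The spread between libraries of a group followed the counts. Members with at least 1000 counts in a group had a median coefficient of variation of 17.6 to 24.1% over the 4 groups, and those with fewer than 500 counts 54.8 to 80.0%. Correlations between members from library to library centred near 0 but spread to both sides. After the group means were taken off, the median Pearson correlation over pairs of members with at least 100 counts on average was 0.024 in hippocampus (1830 pairs of 61 members) and 0.044 in frontal cortex (1770 pairs of 60 members). The 5th and 95th percentiles over pairs were -0.46 and 0.52 in hippocampus and -0.44 and 0.50 in frontal cortex. Each correlation was over 20 libraries, which share sequencing depth and scaling, and is given as a description.

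To determine whether the post-KD microbiota altered ribosomal protein mRNAs in hippocampus, the 10 post-KD were compared with the 10 pre-KD libraries by edgeR's quasi-likelihood test, with p-values adjusted over all genes tested. None of the 80 members passed (every adjusted p was 0.9998), and none of 9509 genes did (0.0%). DESeq2 called none of the members either. With no filter on low counts 0 members and 1291 of 20964 genes passed. With at least 10 counts summed it was 0 members and 1 of 17529 genes, and in frontal cortex with no filter 1 of 21708 genes passed. The stricter filter was used because that of 10 counts let many unchanged low-count genes pass in an earlier simulation. What the 1291 genes reflect was not tested. Without adjustment 4 members (5%) had a p under 0.05, where 2.32% of all genes did. DESeq2 gave 4 members and 333 of 9509 genes (3.502%). With at least 10 counts summed the share of members was the lower, with 2 of 82 (2.44%) against 10.05% of all genes, and with no filter 2 of 83 (2.41%) stood against 13.98%. Among genes with at least 100 counts on average the shares were 6.56% of 61 members and 3.41% of 2522 genes. The median log2 fold change was -0.02 over 47 large and 0.04 over 33 small subunit genes, against 0.00 over all genes, with 39 members above 0 and 41 below. The count of 4 members was 1 without donor 4 (1.95% of all genes), 2 without donor 1 or donor 2 (1.998% and 2.15%), 6 without donor 5 or donor 10 (2.60% and 2.36%), and 6 without donors 9 and 10 together (2.69%).

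Of these 4 hippocampal members 3 were higher after post-KD colonization, where 1.19% of all genes were, and Rpl21 was lower, where 1.14% were. Rpl21, of the large subunit (ENSMUSG00000041453, chromosome 5, 146832890 to 146837032, plus strand) ran from 168 to 276 CPM in pre-KD libraries, with a median of 249, and from 109 to 234 CPM in post-KD libraries, with a median of 193. The ranges overlapped, and the post-KD library was the lower in 9 of 10 donors. The log2 fold change was -0.36 (SE 0.15, 95% interval -0.65 to -0.06, unadjusted p = 0.0198), and without donor 2 that p was 0.0571. Rpl21 shares 51.1% of its windows, and 65 pseudogenes hold part of its sequence.

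Rps10 had 125 to 294 CPM in pre-KD hippocampus (median 182) and 167 to 317 CPM in post-KD (median 246). The log2 fold change was 0.36 (SE 0.16, unadjusted p = 0.0295), with 8 of 10 donors higher. Rpl9, at the base of the stalk, had 112 to 227 CPM (median 175) and 162 to 304 CPM (median 207), a log2 fold change of 0.35 (SE 0.16, unadjusted p = 0.0347) with 7 of 10 donors higher. Rps28, near the site where mRNA leaves the small subunit, had 138 to 234 CPM (median 188) and 159 to 278 CPM (median 242), a log2 fold change of 0.30 (SE 0.15, unadjusted p = 0.0488) with 8 of 10 donors higher. Of 10 post-KD libraries 8, 7 and 4 lay inside the pre-KD range for Rps10, Rpl9 and Rps28, and the others lay above it. Each of the 3 had an unadjusted p over 0.05 when certain single donors were left out, up to 0.111, 0.136 and 0.132. That of Rps28 was also 0.0704 with the donor as a block and 0.154 without donors 9 and 10 together.

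The same comparison in frontal cortex also called no member (smallest adjusted p 0.997), and 1 of 10033 genes passed (0.00997%). DESeq2 called none of the members. Without adjustment 11 members (13.75%) had a p under 0.05, against 4.06% of all genes. DESeq2 gave 12 members (15%) and 5.14% of all genes. With at least 10 counts summed the shares were 12.2% of 82 members and 9.69% of all genes, and with no filter 10.98% of 82 members (9) and 13.98% of all genes. Of the 11, 10 were higher and 1 was lower after post-KD colonization, where 1.94% of all genes were higher and 2.11% lower. The median log2 fold change was 0.10 for each subunit, against 0.00 for all genes, with 55 members above 0 and 25 below. Among genes with at least 100 counts on average the medians were 0.10 for 60 members and -0.02 for 2724 genes, and 16.7% and 6.42% had an unadjusted p under 0.05. The count of 11 members was 13 without donors 9 and 10 (4.62% of all genes), 6 without donor 8 (3.59%), 7 without donor 3 (3.81%), 14 without donor 1 (4.55%), and 17 with Gm42418 as a covariate (4.85%). Fewer cells of a type and less RNA per cell cannot be told apart in such bulk libraries.

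**Figure D3:**
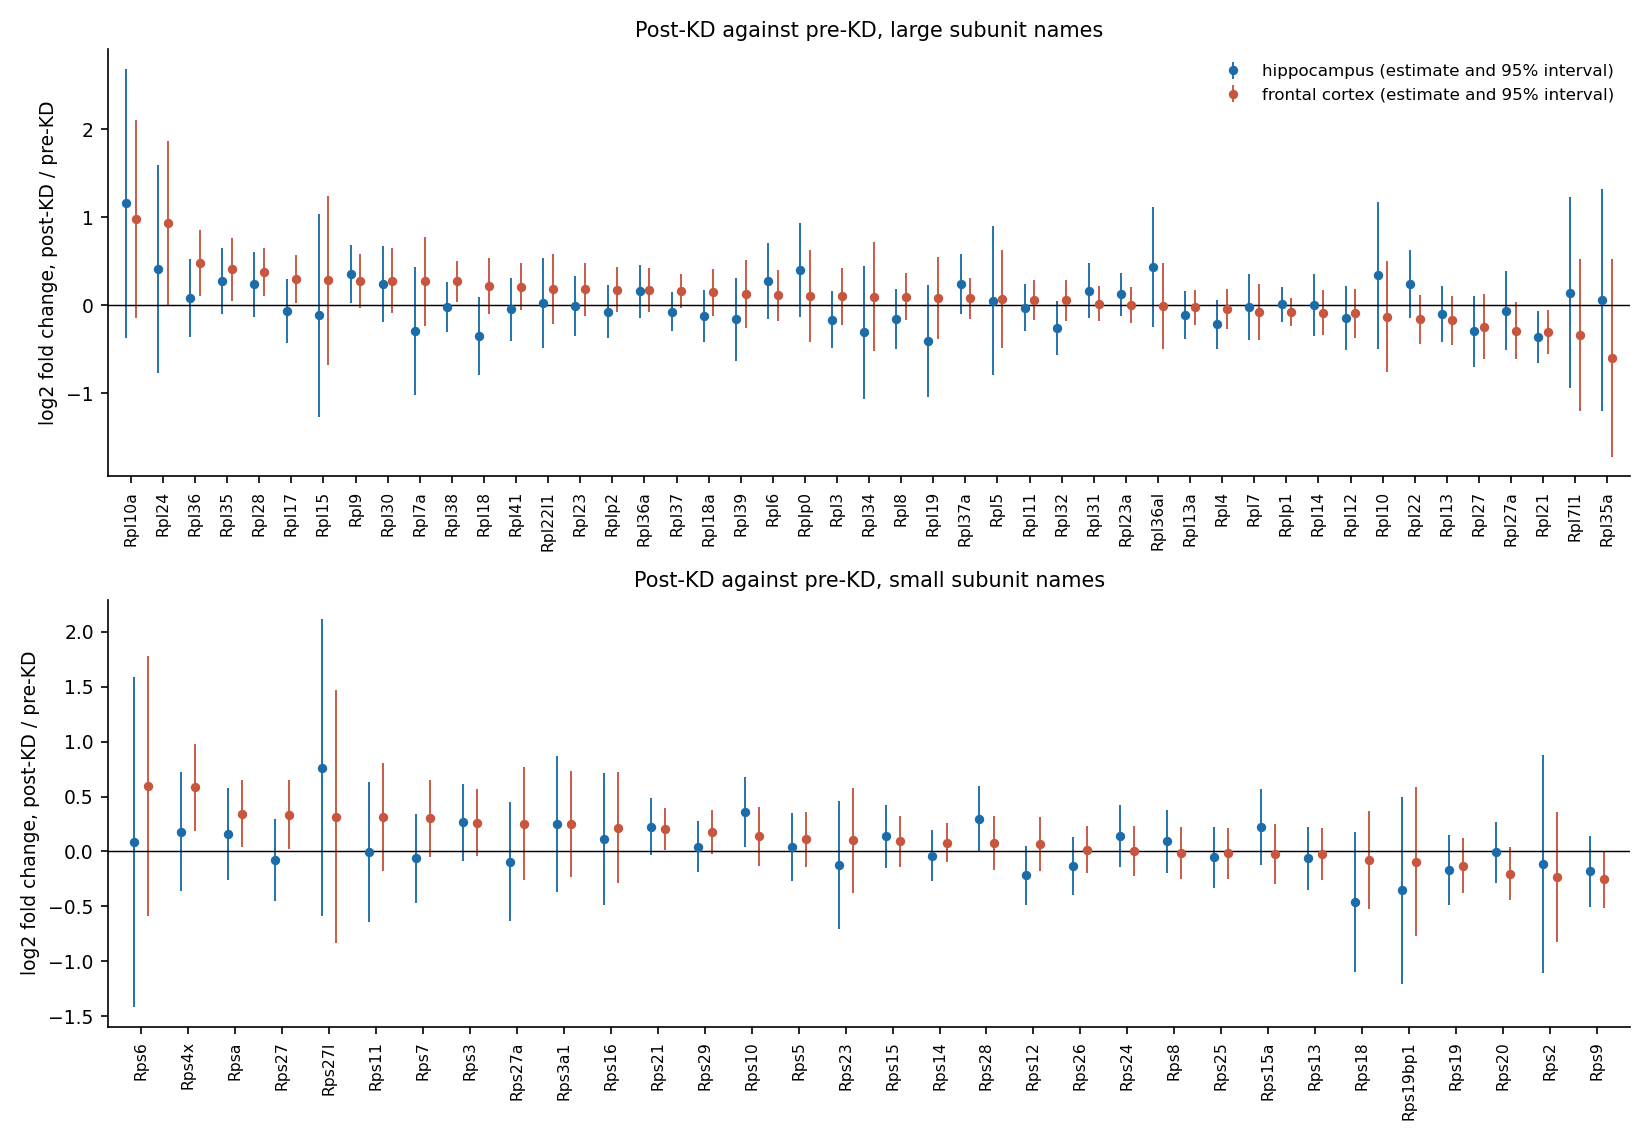
Log2 fold change of tested members after post-KD against pre-KD colonization (y axis), with bars for the 95% interval, in hippocampus and frontal cortex, large subunit above and small subunit below, ordered by the frontal cortical value. Most intervals cross 0, and Rpl21 lies below 0 in both regions.

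Rps4x, the X-linked small subunit gene (ENSMUSG00000031320, chromosome X, 102184941 to 102189394, minus strand), had the smallest p of any member in frontal cortex. It ran from 29.3 to 81.6 CPM in pre-KD libraries (median 51.5) and from 53.4 to 114 CPM in post-KD libraries (median 79.8), a log2 fold change of 0.59 (SE 0.20, 95% interval 0.19 to 0.98, unadjusted p = 0.00478). Of the 10 post-KD libraries 6 lay inside the pre-KD range and 4 above it, and the post-KD library was the higher in 8 of 10 donors. Without donors 9 and 10, the cohorts with Y-linked counts, the log2 fold change was 0.44 (unadjusted p = 0.0438). In hippocampus its log2 fold change was 0.18 (SE 0.27).

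Rpl28, of the large subunit (ENSMUSG00000030432, chromosome 7, 4792874 to 4795066, plus strand), had 73.3 to 144 CPM in pre-KD frontal cortex (median 115) and 124 to 182 CPM in post-KD (median 154). Its log2 fold change was 0.38 (SE 0.14, unadjusted p = 0.0079), with 9 of 10 donors higher. The lowest post-KD library lay above the pre-KD median, and 6 of 10 post-KD libraries lay above the pre-KD range. Rpl36 had 50.9 to 131 CPM (median 91.8) and 48.6 to 182 CPM (median 127), a log2 fold change of 0.48 (SE 0.19, unadjusted p = 0.0139), and that p was 0.0545 without donor 1, 0.0528 without donor 3 and 0.0768 without donors 9 and 10 together. Here the lowest library of all was a post-KD one.

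Rpl21 was the single member of the 11 that was lower. It had 198 to 287 CPM in pre-KD frontal cortex (median 234) and 125 to 252 CPM in post-KD (median 183), a log2 fold change of -0.30 (SE 0.12, 95% interval -0.55 to -0.05, unadjusted p = 0.0184), and without donor 4 that p was 0.0509. Of the 10 post-KD libraries 6 lay below the pre-KD range. The post-KD library was the lower in 9 of 10 donors, as in hippocampus, although 1 donor is an exception in each region and the 2 regions come from the same mice. Rpl21 was the only member with an unadjusted p under 0.05 in both regions.

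Rpl38, a large subunit protein needed in the embryo for the translation of Hox mRNAs, had 171 to 298 CPM in pre-KD libraries (median 243) and 206 to 355 CPM in post-KD libraries (median 283), a log2 fold change of 0.27 (SE 0.12). Rpl35 and Rpl17, at the exit and along the wall of the peptide tunnel, had log2 fold changes of 0.41 (SE 0.18) and 0.30 (SE 0.14). Rpsa, a small subunit protein also known as a laminin receptor, had 84.9 to 190 CPM (median 161) and 138 to 225 CPM (median 177), a log2 fold change of 0.34 (SE 0.15). Rps21, the most abundant of them, had 0.20 (SE 0.09), and Rps27 had 0.34 (SE 0.16). Their unadjusted p-values were between 0.0249 and 0.0377, and each was over 0.05 without certain single donors, up to 0.0755 for Rpl38, 0.0799 for Rpl35, 0.0740 for Rpl17 and 0.0839 for Rpsa. Without donors 9 and 10 together the p was 0.146 for Rpl38 and 0.124 for Rps27. Rps27 stood at 107 to 225 CPM before and 120 to 387 CPM after, and the post-KD library of donor 3 held that highest value. Without donor 3 its log2 fold change was 0.19 (unadjusted p = 0.216), and that of Rps21 was 0.15 (unadjusted p = 0.132). With all 10 donors and the donor as a block the p of Rps27 was 0.0563. Rpl24 completed the 11 with 0.93 (SE 0.46, unadjusted p = 0.0495) on few counts, and that p was 0.0610 with the donor as a block and up to 0.144 when 1 donor was left out. All of these ranges overlapped between conditions.

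Members named for their role rather than their values showed no difference past the test in either region. The stalk proteins Rplp0, Rplp1 and Rplp2 had log2 fold changes of 0.40, 0.01 and -0.07 in hippocampus and 0.10, -0.08 and 0.18 in frontal cortex. Rplp1, with the most counts, had the narrowest interval, -0.19 to 0.21 in hippocampus and -0.23 to 0.08 in frontal cortex. Rps6 had 0.08 (95% interval -1.42 to 1.59) and 0.60 (-0.59 to 1.78), both wide. Rps27a, made as a fusion with ubiquitin, had -0.09 and 0.25. Rpl3 and Rpl10, close to the site of peptide bond formation and of subunit joining, had -0.16 and 0.34 in hippocampus and 0.10 and -0.13 in frontal cortex. Rpl39 and Rpl41, among the shortest of ribosomal proteins, had -0.16 and -0.05 in hippocampus and 0.13 and 0.21 in frontal cortex. Rps19bp1 had -0.35 and -0.10.

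No paralogue passed the test, and differences between paralogues were not tested. Rpl22 and Rpl22l1, of which the former is known to repress the latter, had log2 fold changes of 0.24 (SE 0.19) and 0.03 (SE 0.25) in hippocampus, and -0.16 (SE 0.14) and 0.19 (SE 0.20) in frontal cortex. Rpl7 and Rpl7l1 had -0.02 (SE 0.19) and 0.14 (SE 0.54) in hippocampus, and -0.07 (SE 0.16) and -0.34 (SE 0.43) in frontal cortex. Rpl36a and Rpl36al had 0.16 (SE 0.15) and 0.43 (SE 0.34), then 0.17 (SE 0.13) and -0.01 (SE 0.24). Rps27l, a target of p53 in the cell's stress response, had 0 to 40.4 CPM in pre-KD hippocampus (median 9.11) and 3.43 to 63.2 CPM in post-KD (median 16.6). The post-KD library was the higher in 10 of 10 donors, but the log2 fold change of 0.76 had an SE of 0.67 and an unadjusted p of 0.263 on 491 hippocampal counts in all.

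Seen donor by donor, as the median of log2 ratios of CPM + 1 over members, frontal cortical large subunit genes were higher in 8 of 10 donors (-0.07 to 0.27) and small subunit genes in 8 of 10 (-0.15 to 0.35). In hippocampus 4 of 10 donors were above 0 for large (-0.19 to 0.39) and 6 of 10 for small subunit genes (-0.15 to 0.35). Donor 8 had the highest frontal cortical small subunit median and donor 1 the highest large subunit one. Donor 1 also had the lowest small subunit median there, so the subunits did not always go the same way within a donor.

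**Figure D4:**
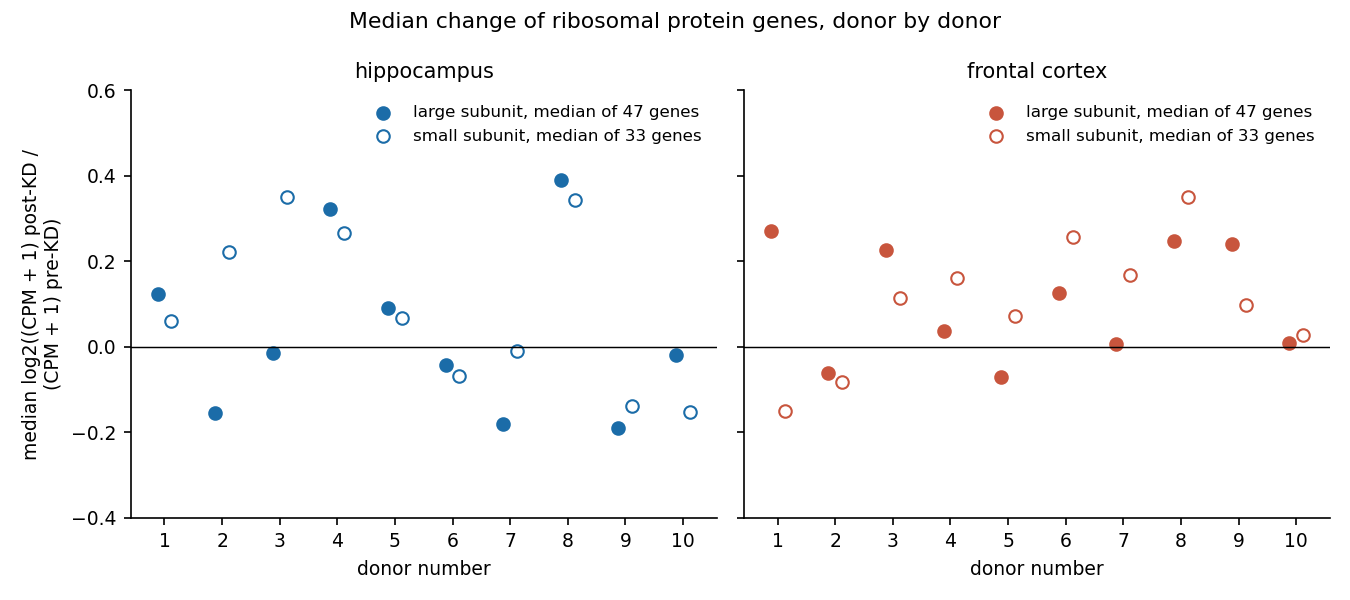
Median log2 ratio of post-KD to pre-KD CPM + 1 over the tested members (y axis) for each of 10 donors (x axis), large and small subunit apart, in hippocampus and frontal cortex. Frontal cortical medians lie above 0 in 8 of 10 donors for each subunit, hippocampal ones on both sides of 0.

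Markers of other cell types were compared beside these values. No gene of the marker lists passed the test between post-KD and pre-KD in either region. Unadjusted p-values under 0.05 were found in frontal cortex for 2 of 3 haemoglobin genes tested, 2 of 6 striatal and 2 of 7 microglial markers, and in hippocampus for 1 of 5 hippocampal, 1 of 4 striatal and 1 of 7 oligodendrocyte markers. In frontal cortex the summed level of 9 choroid plexus markers ran from 1.58 to 601 CPM in pre-KD libraries (median 51.7) and from 14.8 to 447 CPM in post-KD libraries (median 155), with Kcne2 at 0 in the latter. The 4 haemoglobin genes had 417 to 1116 CPM (median 646) and 538 to 1376 CPM (median 942), with Hba-a2 at 0 in all groups. The 7 striatal markers had 488 to 935 CPM (median 888) and 684 to 1098 CPM (median 946), with Drd2 at 0 in post-KD libraries, and the 7 microglial markers 136 to 243 CPM (median 205) and 144 to 270 CPM (median 213), none at 0. Their part in the frontal cortical member values was not tested.

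Whether the post-KD difference was unlike between regions was tested directly, as the interaction of region and condition within cohorts. None of 81 members passed by edgeR or by DESeq2, nor did any of 11808 genes by edgeR (0.0%). Without adjustment 1 member had a p under 0.05, where 2.67% of all genes did, and DESeq2 gave 1 member and 7.68% of all genes. It was Rpl18, with an interaction of -0.59 on the log2 scale (SE 0.29, unadjusted p = 0.0443). Its levels were 65.3 to 195 CPM (median 118) before and 50.5 to 171 CPM (median 86.8) after in hippocampus, and 63.4 to 124 CPM (median 87.4) before and 76.1 to 136 CPM (median 106) after in frontal cortex. Next were Rps12 with -0.32 (SE 0.18) and Rpl22 with 0.42 (SE 0.25). The median interaction was -0.12 for large and -0.09 for small subunit genes, against -0.05 for all genes, so the higher frontal cortical median was not shown to differ from the hippocampal one. Without donors 9 and 10 no member had an unadjusted p under 0.05, where 2.82% of all genes did. No member did with at least 10 counts summed (2.22% of all genes) or with no filter on low counts (1.85%).

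Across both regions 46 of 80 members (57.5%) had post-KD values on the same side of 0, 30 above and 16 below, where 51.7% of 9171 genes did. The regions share mice and donors, so these counts are a description.

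Hippocampus and frontal cortex of the same cohorts were compared next, with a term for each of the 20 cohorts. Of 81 members 2 were called, both higher in hippocampus, where 4.23% of 11808 genes were called and 1.48% were called higher in hippocampus. Among them was Rpl17, of the large subunit. Without adjustment 13 members (16.05%) had a p under 0.05, against 13.9% of all genes. Among genes with at least 100 counts on average it was 20.97% of 62 members and 30.2% of 2641 genes. Of these 13 members, 10 were higher in hippocampus, where 4.2% of all genes were, and 3 were lower (Rpl23a, Rpl8 and Rpl14), where 9.7% were. Without donors 9 and 10 the count of 13 members was 14 (17.28%, against 12.63% of all genes), 11 higher and 3 lower. The median log2 difference, hippocampus minus frontal cortex, was 0.05 for each subunit and -0.12 for all genes. Relative to that general shift members stood higher still, but the shift of all genes was -0.01 in a fit without cohort terms, -0.09 with other size factors and -0.05 among genes with at least 100 counts on average.

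Rpl17, which lines the peptide tunnel (ENSMUSG00000062328, chromosome 18, 74998558 to 75003381, plus strand), was higher in hippocampus in 15 of 20 cohorts. It had 117 to 291 CPM in hippocampal libraries (median 186) and 80.6 to 202 CPM in frontal cortical libraries (median 133). In 4 of the 5 other cohorts the 2 libraries were close, and post-KD donor 9 had 117 CPM in hippocampus and 202 CPM in frontal cortex. The log2 difference was 0.43 (SE 0.12, 95% interval 0.20 to 0.67, adjusted p = 0.0172), and without donor 7 the adjusted p was 0.0833. Rpl17 shared 78.1% of its windows, and 25 pseudogenes hold part of its sequence.

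**Figure D5:**
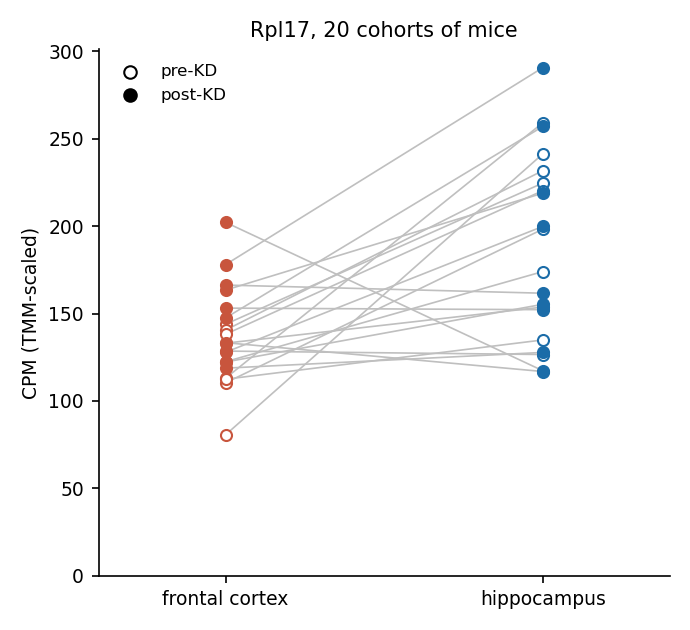
TMM-scaled CPM of Rpl17 (y axis) in frontal cortex and hippocampus of 20 cohorts, a line for each cohort, open points for pre-KD and filled points for post-KD. Rpl17 is higher in hippocampus in 15 of 20 cohorts.

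The number of members called between regions depended on the tool and on single donors. DESeq2 called 6 of 81 (7.41%), among them Rpl17, Rpl37, Rps16, Rps21 and Rps27a, where it called 8.82% of all genes. By edgeR 4 were called without donor 1 (4.203% of all genes) and 3 without donor 9 (3.85%), and 1 without donor 3 (3.53%), without donor 7 (3.61%) or with no filter on low counts (2.22%). Without donors 9 and 10 together 4 were called (3.33% of all genes), among them Rpl17, Rpl30 and Rpl8, of which Rpl8 was lower in hippocampus. By the reported fit Rps16 had a log2 difference of 0.56 (adjusted p = 0.0744), Rps27a of 0.53 (adjusted p = 0.0976), Rps21 of 0.22 (adjusted p = 0.0839) and Rpl37 of 0.20 (adjusted p = 0.0959), each higher in hippocampus in 15 or 16 of 20 cohorts. Rpl23a, beside Rpl35 at the tunnel exit, was the other way round at -0.23 (adjusted p = 0.0856) and Rpl8 at -0.24 (adjusted p = 0.226).

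Markers of neighbouring tissue were also read in both regions. The 9 choroid plexus markers summed to 525 to 4467 CPM in hippocampal and 1.58 to 601 CPM in frontal cortical libraries, with 5 of 8 tested called, all higher in hippocampus. The 7 striatal markers summed to 34.5 to 306 CPM in hippocampus and 488 to 1098 CPM in frontal cortex, with 6 of 6 tested lower in hippocampus and Drd2 at 0 in both hippocampal groups and in post-KD frontal cortex. Of the hippocampal markers 4 of 5 tested were higher in hippocampus, with Tdo2 at 0 in frontal cortex. Of the neocortical markers 3 of 7 were called, 1 higher and 2 lower in hippocampus. The part of these tissues in the Rpl17 difference was not tested.

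Other genes of translation were read from lists set beside the members, and none of their genes passed the test in any of the 4 comparisons. In hippocampus, unadjusted p-values under 0.05 were found for 0 of 3 proteins that travel with the ribosome, 0 of 12 elongation and termination factors, 1 of 34 initiation factors, 0 of 5 other mRNAs with a pyrimidine tract and 0 of 45 ribosome biogenesis genes, where 2.32% of all genes had one. Eif3m, a subunit of the initiation factor that binds the small subunit, had a log2 fold change of 1.23 (SE 0.49, unadjusted p = 0.0155). In frontal cortex the counts were 0 of 3, 1 of 11, 2 of 33, 1 of 5 and 1 of 46, where 4.06% of all genes had one. They were the elongation factor subunit Eef1d (-0.61, SE 0.22), the initiation factors Eif3g (0.55, SE 0.23) and Eif5b (-0.29, SE 0.13), the histone chaperone Nap1l1 (-0.22, SE 0.11), and Polr1d, a subunit shared by RNA polymerases that make ribosomal and transfer RNA (0.70, SE 0.29). In hippocampus Polr1d stood at -0.75 (SE 0.45) and its interaction was -1.50 (SE 0.64, unadjusted p = 0.0224). Fau, which encodes a ribosomal protein fused to a ubiquitin-like one, had 0.09 (SE 0.14) in frontal cortex.

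Between regions the same lists held 1 of 3, 3 of 12, 3 of 34, 1 of 6 and 2 of 50 genes with an unadjusted p under 0.05, where 13.9% of all genes had one. The elongation factors stood on opposite sides, with Eef2, which moves the ribosome along the mRNA, at -0.23 (SE 0.07, adjusted p = 0.0541) and Eef1a1, which delivers transfer RNA, at 0.31 (SE 0.11, adjusted p = 0.0817). Nap1l1 was at -0.25 (SE 0.10), and the biogenesis genes Nol6 and Dkc1 were at 0.66 (SE 0.24) and -0.49 (SE 0.18). For the interaction 2 biogenesis genes (Polr1d and Bysl) and 1 elongation factor (Eef1a1) had an unadjusted p under 0.05, where 2.67% of all genes did.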

How the data were processed

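The authors deposited 2 tables of raw counts per Ensembl gene, 1 for each region, with 20 libraries each. By the study's methods and the labels, total RNA was made into TruSeq libraries, sequenced as read pairs of 69 bases, trimmed with bbduk, aligned to mm10 with STAR (2.5.2a) and counted with HTSeq-count (0.6.0). The annotation release, the strand setting and the treatment of reads with several matches are not given in the sources used here, and a key resource list names another library kit (QuantSeq FWD). These counts were used as deposited. Gene names, lengths and positions came from GENCODE M21 (GRCm38), to which 47224 of 47643 genes matched. Start windows came from RefSeq.

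Counts were fitted with edgeR 4.0.16 (R 4.3.3, limma 3.58.1): TMM scaling, filterByExpr on the group, glmQLFit and glmQLFTest, two-sided, with Benjamini-Hochberg adjustment over all genes tested and a threshold of 0.05. Each region was fitted alone for post-KD against pre-KD, and all 40 libraries together, with a term for each of 20 cohorts, for the regions and the interaction. The cohort terms rest on the design, since both regions came from the same mice; the correlation of deviations between the 2 libraries of a cohort was -0.02 to 0.20 (8157 genes) and over 0.1 in 1 of 20. Within a region, post-KD libraries are tied to pre-KD ones by the stool donor but come from different mice, and their correlations were -0.03 to 0.03 in hippocampus (8016 genes) and -0.06 to 0.03 in frontal cortex (8255 genes), over 0.1 in 0 of 10 pairs in each. Replicates are pools of mice given 1 donor's stool, so p-values measure the spread between donors and pools. CPM values are TMM-scaled within the fit they stand beside. No 2 of the 780 library pairs were identical. A simulation with known changes was run through the same code.

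Members, gene lists and rules were chosen with earlier results of these data known. The text names members called or, at most, the 10 with the smallest unadjusted p under 0.05 per region (Rpl24, the 11th in frontal cortex, was added after its value was seen), up to 6 called members in each direction between regions, the 3 smallest p of the interaction, members picked by role or paralogy, the 3 highest and 3 lowest per length, members not tested, and at most 2 genes of each other list. Those between regions that were not called by the reported fit were also named after their values were seen. Alternatives were DESeq2 1.42.0, RLE size factors, scaling without members and abundant genes, a minimum of 10 counts, no filter, donor as a block or no cohort terms, a Y-linked covariate, and leaving out each donor. Leaving out donors 9 and 10 together and adding Gm42418 as a covariate were chosen after seeing the data. Protein-coding rows marked as pseudogenes (6) and pseudogene rows with these names (259) were left out. The results of 1 member and 1 gene of the other lists enter the counts and medians but are not reported here, and the plots of single genes leave them out.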

Additional observations from a re-analysis of the deposited data

Results flagged for a closer look

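The highest or lowest library stood far from the others of its group (Dixon's 95% criterion) in 14 of 160 groups of 10 libraries looked at, where chance gives about 1 in 20. In pre-KD hippocampus these were donor 6 for Rpl10 (69.2 CPM, the next library 31.7), Rpl21 (168 CPM, next 235.1) and Rps6 (21.1 CPM, next 11.4), donor 7 for Rpl36a (308 CPM, next 229), donor 4 for Rps14 (946 CPM, next 763) and donor 10 for Rps4x (135 CPM, next 85.3). In post-KD hippocampus they were donor 3 for Rpl22 (64.9 CPM, next 132), donor 4 for Rpl36a (317 CPM, next 244), donor 6 for Rpl39 (182 CPM, next 124) and donor 7 for Rps27l (63.2 CPM, next 27.8). In pre-KD frontal cortex they were donor 7 for Rpl17 (80.5 CPM, next 112), donor 10 for Rplp2 (453 CPM, next 348) and donor 1 for Rps27a (147 CPM, next 79.0). In post-KD frontal cortex it was donor 3 for Rps27 (387 CPM, next 233).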

How the results depend on the processing

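Of 3125 values of named members under the alternatives, 3112 kept their call, 1 lost it, 12 gained one and none turned a call round, while 164 uncalled values changed sign. In hippocampus the count of members with an unadjusted p under 0.05, 4 as reported, was 2 with at least 10 counts summed and 2 with no gene filter, and in frontal cortex it was 17 rather than 11 with Gm42418 as a covariate. Between regions the number called, 2 as reported, was 6 by DESeq2, 4 with RLE size factors (4.94%, against 4.21% of all genes), 1 with no gene filter and 4 without donors 9 and 10. For the interaction the unadjusted count of 1 was 0 with at least 10 counts summed, where the share of all genes was 2.22%. It was also 0 with no gene filter (1.85% of all genes) and without donors 9 and 10 (2.82%). The causes were not tested, beyond the fewer samples.

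Leaving out 1 donor at a time gave 0 called members for post-KD in either region and for the interaction, and 1 to 4 between regions. Between regions 3.43 to 4.203% of all genes were called in these fits. Unadjusted counts of members were 1 to 6 in hippocampus and 6 to 14 in frontal cortex. They were 9 to 18 between regions and 0 to 3 for the interaction. Of all genes, 1.95 to 2.596% in hippocampus and 3.59 to 4.55% in frontal cortex had an unadjusted p under 0.05. Those shares were 12.5 to 14.34% between regions and 2.44 to 2.93% for the interaction. Medians of large and small subunit genes ranged from -0.04 to 0.02 and -0.03 to 0.07 in hippocampus, 0.08 to 0.13 and 0.08 to 0.14 in frontal cortex, 0.02 to 0.08 and 0.03 to 0.07 between regions, and -0.21 to -0.06 and -0.14 to -0.05 for the interaction.

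With the donor as a replicate block, which pairs post-KD with pre-KD libraries, 0 members were called in either region, as without it, and 3 in hippocampus (3.75%, against 2.198% of all genes) and 9 in frontal cortex (11.25%, against 3.85%) had an unadjusted p under 0.05. Without the replicate block of cohorts 3 (3.70%) were called between regions, Rpl17 and Rps16 among them, where 3.89% of all genes were.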
